A study of Mus musculus with 21 samples.

Results

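The genes described here are 10 genes of lung epithelial differentiation and surfactant, chosen by symbol: the surfactant protein genes Sftpa1, Sftpb, Sftpc and Sftpd, the surfactant lipid transporter gene Abca3, the transcription factor genes Nkx2-1, Foxa2, Sox9 and Etv5, and the airway secretory gene Scgb3a2. They are 10 of 42760 genes in the lung table. RNA was sequenced from lungs of E14.5 embryos of the Fendrr strain, which the sample labels name after Foxf1a, with 2 wild-type and 2 Fendrr-/- samples. For contrast, brains of other lincRNA strains were sequenced: E18.5 brain of the Peril strain (named after Sox2 in the labels), with 2 wild-type and 2 Peril-/- samples, and the linc-Brn1b strain, from which the telencephalon was taken at E13.5 and E15.5 and the brain at P7, with 2 samples per genotype and age except 3 labelled linc-Brn1b-/- samples at E15.5, where the study's text names fewer and which of them entered the pooled value is not known. That makes 21 samples, 4 of lung and 17 of brain. In each strain a lacZ reporter cassette took the place of the lincRNA gene in hybrid ES cells of 129S6SvEv and C57BL/6N background. The resulting mice were crossed to C57BL/6J, and controls were wild-type littermates, so loss of the transcript and gain of the cassette cannot be told apart.

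Surfactant is a film of phospholipids and proteins that lowers surface tension in the airspaces and is made by alveolar type 2 cells, which mature late in gestation. The embryonic lung epithelium grows by branching: SOX9 and ETV5 mark the dividing distal tips under FGF signalling from the mesenchyme, while NKX2-1 and FOXA2 act along the whole epithelium and bind the promoters of surfactant genes. SFTPC appears early in the distal epithelium, and the other surfactant proteins follow as the cells mature.

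The 4 promoters printed here are those of 3 surfactant genes and of Nkx2-1 itself, the factor that is known to bind surfactant promoters, and they are a choice from the 6 genes with a window. All 4 had lower values in the Fendrr-/- lung, none by as much as 1.5-fold, as did Foxa2 among the genes not printed, while Etv5 did not. Sftpc and Sox9, which had higher values, had no window, nor did Sftpd and Scgb3a2. Whether the motifs marked below have a part in these values was not tested. RefSeq start sites (assembly GRCm38.p6) gave a window for 6 of the 10 genes, and the sequences matched the mm9 genome exactly at the positions given, 5′ to 3′ in the direction of the gene, ending at the base before the start or before the first annotated exon. Capitals mark matches, on either strand, to CAAG, the short core of the NKX2-1 site, and to GCNCTNNAG, a longer form of that site.
Sftpa1, chr14:41944827-41945070, plus strand: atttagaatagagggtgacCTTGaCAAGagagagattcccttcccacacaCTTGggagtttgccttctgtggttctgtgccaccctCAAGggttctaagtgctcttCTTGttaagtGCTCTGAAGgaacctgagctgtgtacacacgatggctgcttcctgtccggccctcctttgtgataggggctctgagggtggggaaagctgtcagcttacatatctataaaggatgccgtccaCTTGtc
Sftpb, chr6:72254354-72254603, plus strand: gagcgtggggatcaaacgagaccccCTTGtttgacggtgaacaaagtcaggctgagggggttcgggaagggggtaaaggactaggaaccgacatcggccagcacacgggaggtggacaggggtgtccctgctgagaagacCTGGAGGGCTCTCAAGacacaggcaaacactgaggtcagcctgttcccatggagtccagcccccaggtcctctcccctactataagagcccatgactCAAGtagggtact
Abca3, chr17:24488718-24488894, plus strand: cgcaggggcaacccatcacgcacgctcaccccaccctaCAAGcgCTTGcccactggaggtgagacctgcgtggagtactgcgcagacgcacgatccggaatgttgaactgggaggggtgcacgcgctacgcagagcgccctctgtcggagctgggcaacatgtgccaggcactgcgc
Nkx2-1, chr12:57637896-57638145, minus strand: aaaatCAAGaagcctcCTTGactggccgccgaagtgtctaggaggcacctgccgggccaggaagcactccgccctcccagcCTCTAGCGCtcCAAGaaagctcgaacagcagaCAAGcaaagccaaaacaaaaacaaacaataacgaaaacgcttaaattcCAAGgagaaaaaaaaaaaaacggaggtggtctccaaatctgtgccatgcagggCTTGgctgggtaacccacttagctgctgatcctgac

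Sftpa1 held 6 CAAG and 1 GCNCTNNAG match in 244 bases. Sftpb held 3 CAAG and 2 GCNCTNNAG matches in 250 bases, and the GCNCTNNAG matches, at positions -110 to -102 and -103 to -95 from the start, overlapped each other, and the latter also the CAAG at -98 to -95. Abca3 held 2 CAAG matches and 0 of the longer form in 177 bases, and Nkx2-1 held 6 CAAG matches and 1 of the longer form in 250 bases. Short motifs are common: of 32851 RefSeq windows of 250 bases, 86.6% held CAAG, with a median of 2 matches, and 14.2% held GCNCTNNAG. The FOXA motif TGTTTAC, searched on both strands, was in 3.17% of those windows. It had 0 matches in the 4 printed and in the 3 windows of Foxa2, and 1 match in 1 of the 2 windows of Etv5. Only this exact form was searched, so a window with 0 matches may still hold other forms of the FOXA site. Base composition differed among them, from a GC content of 50.4% for Sftpa1 to 65.5% for Abca3, against a median of 52.4% over all windows. A match describes letters only and is not evidence of binding in these tissues.

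The genes lie on 8 chromosomes of mm9. Sftpa1 (chromosome 14, 41945071 to 41949741, plus strand) and Sftpd (chromosome 14, 41985501 to 41998487, minus strand), which encode the collagen-like surfactant proteins, are neighbours with 35759 bp between them. Sftpc lies on the same chromosome (70920748 to 70923888, minus strand), 28922260 bp beyond Sftpd. Sftpb is on chromosome 6 (72254619 to 72262926, plus strand) and Abca3 on chromosome 17 (24488895 to 24547146, plus strand). Nkx2-1 is on chromosome 12 (57632922 to 57637895, minus strand), Foxa2 on chromosome 2 (147868613 to 147872705, minus strand), Sox9 on chromosome 11 (112643538 to 112649074, plus strand), Etv5 on chromosome 16 (22381382 to 22439792, minus strand) and Scgb3a2 on chromosome 18 (43923979 to 43927047, plus strand).

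Expression is given in FPKM (fragments scaled by transcript length and library size), so levels can be compared between genes per unit of length. The deposited tables hold 1 value per group, the authors' pooled value over the samples of a genotype. Every value below is such a pooled value: the spread between animals and the depth behind it are unknown, no standard deviation could be computed, and no difference below was tested here (p-values of the authors' own comparisons were not used). Differences are of log2(FPKM + 1), knockout minus wild type, a scale that understates differences of low genes. A gene was called past the fold when FPKM + 1 differed by at least 1.5-fold and the gene reached 1 FPKM in one of the genotypes. In bulk tissue, fewer cells of a type and less RNA per cell cannot be told apart.

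The lung samples differed in more than the deleted gene. The entry covering Fendrr (linc-Cox4nb-4) was at 38.4 FPKM in wild-type and 0.0450 FPKM in Fendrr-/- lung. Its neighbour Foxf1a, a factor of lung mesenchyme, was at 36.6 and 24.8 FPKM (-0.54), which is not past the fold. The study reported no significant difference of Foxf1a in Fendrr-/- lung. Wild-type lung had 4.55 to 13.51 FPKM of the Y-chromosome genes Uty, Kdm5d, Ddx3y and Eif2s3y, all of which were listed at 0 in Fendrr-/- lung. Xist was at 52.0 and 106 FPKM. The pooled wild-type value thus held both Y-chromosome and Xist transcripts, and the sex of each sample is unknown. Sex and genotype cannot be told apart. Of 12 heart muscle genes, 10 were past the fold and higher in the Fendrr-/- lung, beside 1.52% of all 14265 lung genes above the minimum. The 12 summed to 373 FPKM in wild-type and 1159 FPKM in Fendrr-/- lung (the atrial peptide gene Nppa was at 1.77 and 54.2 FPKM). The liver genes Alb and Afp were at 2.39 and 2.25 FPKM in wild-type and 0.202 and 0.387 FPKM in Fendrr-/- lung. The part that sex or heart and liver tissue has in the values below was not tested.

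Among the surfactant protein genes, Sftpc stood far above the others in the E14.5 lung. Sftpc encodes a small hydrophobic protein of the surfactant film, and it was at 819 FPKM in wild-type and 871 FPKM in Fendrr-/- lung. It ranked 93rd of 42760 genes in wild-type and 87th in Fendrr-/- lung. Sftpb, which encodes the other hydrophobic surfactant protein, was at 25.4 FPKM in wild-type and 18.8 FPKM in Fendrr-/- lung. Sftpa1, which encodes a collectin of innate defence, was at 3.32 and 2.48 FPKM. Sftpd, the gene of the other collectin, was at 0.120 and 0.0172 FPKM, below the minimum of 1 FPKM in both genotypes, and is left out of the counts below. The 4 genes summed to 848 FPKM in wild-type lung, of which Sftpc made up 96.6%, and to 892 FPKM in Fendrr-/- lung, of which it made up 97.6%.

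The lung levels of the other genes spanned a narrower range. Abca3, the transporter that loads phospholipid into lamellar bodies, was at 13.2 FPKM in wild-type and 10.7 FPKM in Fendrr-/- lung. Nkx2-1, the factor that specifies the lung field in the foregut, was at 61.4 and 53.1 FPKM, and Foxa2, a forkhead factor of foregut endoderm, was at 16.0 and 13.9 FPKM. The tip genes had nearly the same value in both genotypes. Sox9 was at 13.4 and 13.6 FPKM, and Etv5, an ETS factor induced by FGF, was at 95.0 and 96.2 FPKM. Scgb3a2, a secretoglobin gene of developing airways, was at 94.1 FPKM in wild-type and 74.9 FPKM in Fendrr-/- lung.

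**Figure D1:**
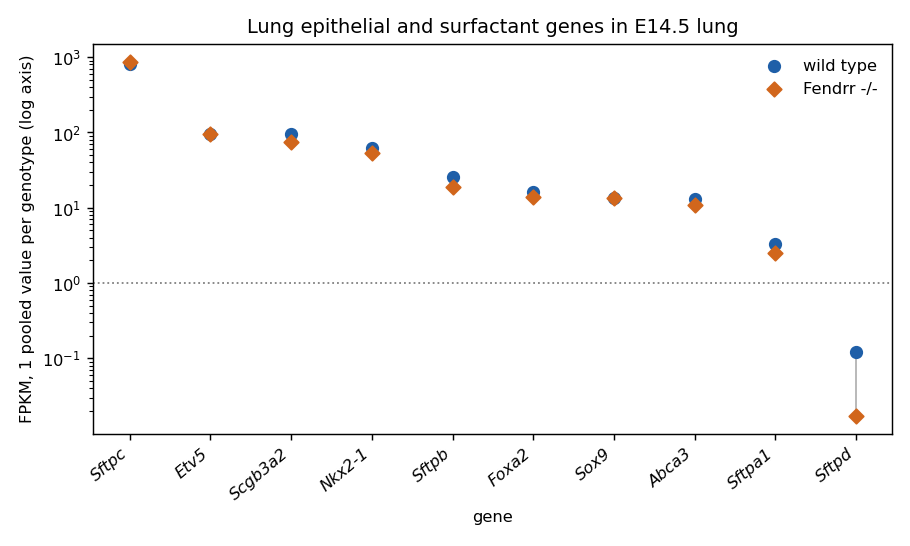
FPKM on a log axis for the 10 genes in E14.5 lung, ordered by wild-type level, with 1 point per genotype (the authors' pooled value, circles for wild type and diamonds for Fendrr-/-). The dotted line marks 1 FPKM: Sftpc is at 819 and 871 FPKM, and Sftpd alone lies below the line in both genotypes.

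Between genotypes, none of the 9 genes above the minimum was past the fold in either direction. Over all 14265 lung genes above the minimum, 1.52% were past the fold and higher in Fendrr-/- lung, 0.967% lower, and 2.49% in either direction, so that 0 of 9 is no departure from the background. Of the 9 genes, 3 had a higher value in Fendrr-/- lung and 6 a lower one, with a median log2 difference of -0.21 and a range of -0.42 to 0.09. The median over all genes was 0.00, and 90% of genes lay between the 5th percentile of -0.29 and the 95th of 0.29.

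The sizes of the differences ran from Sftpb at the low end to Sftpc at the high end. Sftpb differed by -0.42, its Fendrr-/- value being 73.7% of wild type, and 4.68% of all genes had a difference of that size or more in either direction. Scgb3a2 differed by -0.32 (79.6% of wild type, a size that 7.85% of genes reached) and Sftpa1 by -0.31 (74.7%, reached by 8.50%). Abca3 differed by -0.28 (81.1%, reached by 10.6%), just inside the range that holds 90% of genes. The factors lay nearer to 0, with Nkx2-1 at -0.21 (86.4% of wild type) and Foxa2 at -0.19 (86.8%). Sox9 and Etv5 each differed by 0.02 (101.3% and 101.2% of wild type), and Sftpc by 0.09 (106%, a size that 48.3% of genes reached).

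Ratios within a genotype set the genes in proportion to one another. Etv5 was at 7.07 times the FPKM of Sox9 in wild-type and 7.06 times in Fendrr-/- lung. Nkx2-1 was at 3.84 and 3.83 times the FPKM of Foxa2, and Sftpb at 7.65 and 7.55 times that of Sftpa1. These ratios were nearly equal between genotypes for the tip factors, the pan-lung factors and the low surfactant proteins. Ratios to Sftpc differed more: it was at 32.2 times the FPKM of Sftpb in wild-type and 46.4 times in Fendrr-/- lung, and at 8.70 and 11.6 times that of Scgb3a2.

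All 20 of a list of general epithelial genes (cadherin, keratins, claudins and splicing factors found in most epithelia) were above the minimum and had a lower value in Fendrr-/- lung, with a median difference of -0.15, from -0.35 for the serine protease gene Prss8 to -0.02 for the protease inhibitor gene Spint2. None was past the fold, and the list summed to 747 FPKM in wild-type lung and to 676 FPKM in Fendrr-/- lung. Set against that epithelial median, Nkx2-1 was at -0.06 and Foxa2 at -0.04 on the log2 scale. Sftpb remained at -0.27, Scgb3a2 at -0.18, Sftpa1 at -0.17 and Abca3 at -0.13. On the same scale Sox9 and Etv5 were each at 0.16 and Sftpc at 0.23, so that no gene of the 9 had another sign than before.

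Alveolar type 2 genes other than the 10 lay on the low side. Of 10 listed, 9 were above the minimum, 8 of them with a lower and 1 with a higher value in Fendrr-/- lung, and 0 were past the fold, with a median difference of -0.27. The lowest was Cldn18, a claudin of alveolar tight junctions, at 53.2 FPKM in wild-type and 40.6 FPKM in Fendrr-/- lung (-0.38), and the highest was Cebpa, a factor of type 2 cell maturation, at 5.83 and 6.46 FPKM (0.13). Slc34a2, a phosphate transporter gene of type 2 cells, was below the minimum at 0.887 and 0.581 FPKM. The list summed to 243 FPKM in wild-type lung and to 203 FPKM in Fendrr-/- lung.

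Distal tip genes lay near 0. Of 12, all above the minimum, 7 had a higher and 5 a lower value in Fendrr-/- lung and 0 were past the fold, with a median of 0.02. Gata6, a zinc finger factor of lung endoderm and mesoderm, was highest at 20.2 and 24.4 FPKM (0.26), and the homeobox gene Irx2 was lowest at 17.3 and 15.7 FPKM (-0.13). The list summed to 391 FPKM in wild-type lung and to 392 FPKM in Fendrr-/- lung.

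Genes of the FGF pathway, which acts on the tips, were likewise close to 0, with 7 of 11 higher, 4 lower, 0 past the fold and a median of 0.06. They overlap the tip list in Fgfr2, Etv4 and Spry2. Fgf10, the mesenchymal ligand, was at 11.6 FPKM in wild-type and 12.99 FPKM in Fendrr-/- lung (0.15). Spry4, a feedback inhibitor of the pathway, was at 4.89 and 4.32 FPKM (-0.15).

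Alveolar type 1 and airway genes were more spread. Of 8 type 1 genes, 7 were above the minimum, 6 lower and 1 higher with 0 past the fold, and their median was -0.15, which came to about 0 when values were set against the epithelial median, a shift that is the same for every gene. Clic5, a chloride channel family gene, was lowest at 4.67 and 2.92 FPKM (-0.53), and Pdpn, the podoplanin gene, was highest at 19.4 and 23.4 FPKM (0.25). Of 11 airway genes, 9 were above the minimum, 6 lower and 3 higher, with a median of -0.14. The sign of that median depended on the setting: it was above 0 after that shift and with a minimum of 5 FPKM. With that minimum only Cyp2f2 (-0.28) and Krt5 (0.76) remained in the list. Among these epithelial lists, the airway list was the one with genes past the fold, 2 higher and 1 lower in Fendrr-/- lung. Over all lung genes above the minimum, 1.52% were past the fold and higher and 0.967% lower. These airway genes have low values of unknown spread. Calca, a peptide gene of neuroendocrine cells, was at 0.471 FPKM in wild-type and 1.70 FPKM in Fendrr-/- lung (0.88), and Krt5, a basal cell keratin gene, at 4.04 and 7.54 FPKM (0.76). The club cell genes Scgb1a1 and Scgb3a1 were listed at 0 in both genotypes, in contrast to Scgb3a2.

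Other factors of lung epithelium had a median of -0.13 over 10 genes, 7 lower and 3 higher with 0 past the fold, and this median too was smaller than the shift to the epithelial median, after which it lay just above 0. The list overlaps the lists above in Gata6 (tip genes), Cebpa (type 2 genes) and Grhl2 (general epithelial genes). Elf5, an ETS factor of the distal epithelium, was lowest at 10.5 FPKM in wild-type and 7.33 FPKM in Fendrr-/- lung (-0.46), and Gata6 was again the highest. Foxa1, the close paralogue of Foxa2, was at 15.4 and 12.7 FPKM (-0.26).

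Genes of the non-epithelial cells of the lung lay on both sides of 0. Of 9 mesenchyme genes, 6 were higher and 3 lower, with a median of 0.09, from -0.54 for Foxf1a to 0.30 for the collagen gene Col1a1, and none was past the fold. Of 10 endothelial genes, 9 were lower and 1 higher with 0 past the fold, and the median was -0.29, the lowest being the tight junction gene Cldn5 at 49.4 and 35.6 FPKM (-0.46). The lower values of Sftpb, Sftpa1, Abca3 and Scgb3a2 came with lower values of endothelial and general epithelial genes in the same samples, and with higher values of heart muscle genes, and the part of these in the result was not tested.

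**Figure D2:**
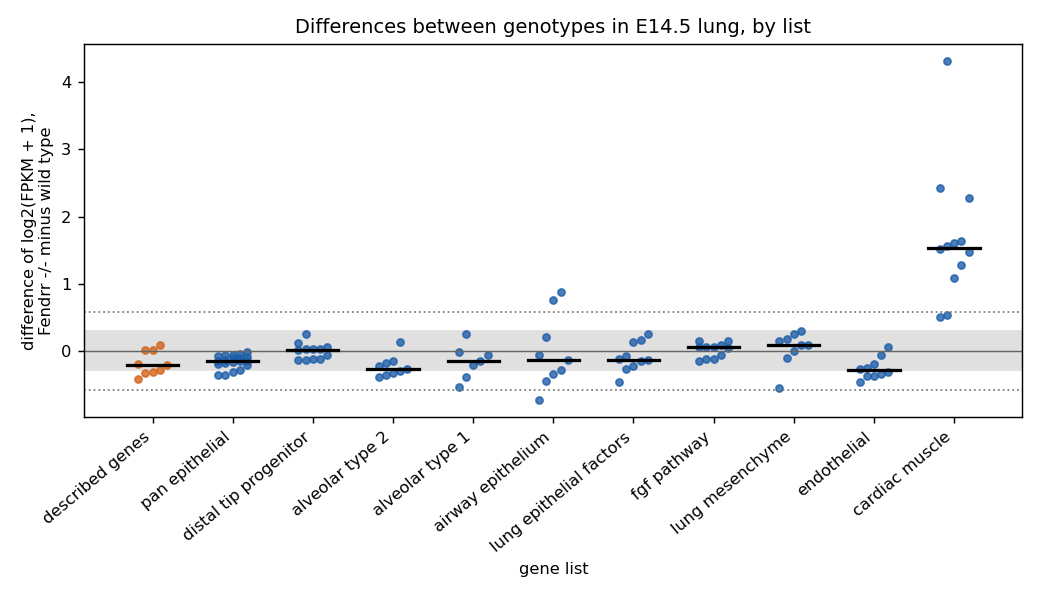
Difference of log2(FPKM + 1) between Fendrr-/- and wild-type E14.5 lung for genes above the minimum, 1 point per gene, grouped by list, with black bars at the list medians. The grey band holds the middle 90% of all genes and dotted lines mark 1.5-fold: the described genes (orange, 9 of the 10) lie between -0.42 and 0.09, and the heart muscle list has a median of 1.54.

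The label of the tissue fits its markers. Tbx4, a factor of lung mesenchyme, was at 63.7 FPKM in both lung genotypes and at most 0.235 FPKM in any brain group, while the neuronal tubulin gene Tubb3 was at 4.31 to 4.95 FPKM in lung and 678 to 1366 FPKM in the brain groups. Nkx2-1 is also found in the thyroid and Foxa2 in the stomach, organs that lie close by in the embryo. Of 7 thyroid genes, Hhex alone, which is also expressed in endothelium, reached 1 FPKM in lung, with Tg at 0.0465 and 0.0800 FPKM. Of 7 foregut and stomach genes, only Krt13 and Krt4 reached 1 FPKM, the former at 1.57 and 1.03 FPKM and the latter at 2.16 and 1.90 FPKM, and Gkn1, Tff1 and Tff2 were listed at 0. Of the blood genes, Alas2, the erythroid haem synthesis enzyme, was past the fold and lower in Fendrr-/- lung (45.2 and 20.5 FPKM), while Hbb-y and Hbb-bh1 were higher by 0.28 and 0.16.

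In the brain the 10 genes split into 2 sets. Levels in lung and brain come from separately normalized tables and are set side by side only as orders of magnitude. Sftpa1, Sftpb, Sftpc, Sftpd, Foxa2 and Scgb3a2 were below 1 FPKM in all 8 brain groups, and Abca3, Nkx2-1, Sox9 and Etv5 were above it in all 8. Of the former set, Foxa2 alone had a value above 0 in every brain group. It was at 0.475 and 0.511 FPKM in wild-type and Peril-/- brain at E18.5, at 0.246 and 0.188 FPKM in wild-type and linc-Brn1b-/- brain at P7, and between 0.00269 and 0.0311 FPKM in the telencephalon. Foxa2 is known from the floor plate of the midbrain, which is not part of the telencephalon. Of 7 genes listed for floor plate and dopaminergic neurons, 5 reached 1 FPKM in E18.5 brain, 3 in E13.5 telencephalon and 2 each in E15.5 telencephalon and P7 brain. Sftpc was at most 0.247 FPKM (Peril-/- brain) and listed at 0 in the 4 telencephalon groups. Sftpb was at most 0.102 FPKM and listed at 0 in 3 brain groups. Sftpa1, Sftpd and Scgb3a2 were each listed at 0 in 7 of 8 brain groups, and in the remaining group at 0.00333, 0.0763 and 0.0297 FPKM.

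**Figure D3:**
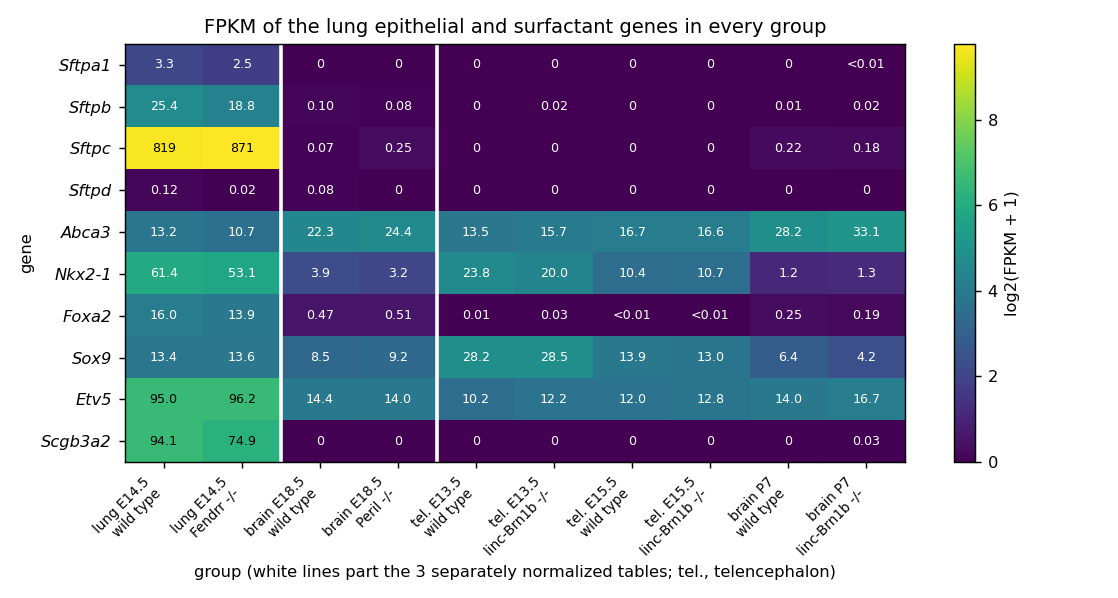
FPKM of the 10 genes (rows, numbers printed in the cells) in the 10 groups (columns), coloured by log2(FPKM + 1), each cell being 1 pooled value. White lines part the 3 separately normalized tables: Abca3, Nkx2-1, Sox9 and Etv5 have values in every column, and the other 6 genes stay below 1 FPKM in all brain columns.

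The 4 genes found in brain ordered the tissues differently. Abca3 was lowest in lung (10.7 and 13.2 FPKM) and highest in P7 brain, at 28.2 FPKM in wild-type and 33.1 FPKM in linc-Brn1b-/- mice. Nkx2-1 was highest in lung and next highest in E13.5 telencephalon, at 23.8 and 19.99 FPKM. Sox9 was highest in E13.5 telencephalon, at 28.2 FPKM in wild-type and 28.5 FPKM in linc-Brn1b-/- embryos, and its lung values lay beside those of E15.5 telencephalon (13.9 and 13 FPKM). Etv5 was highest in lung and lay between 10.2 and 16.7 FPKM in all brain groups. The spread between animals is unknown, so neighbours in these orders cannot be called different.

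In the linc-Brn1b strain, the levels of these genes differed by age. Nkx2-1, which in the forebrain marks the medial ganglionic eminence, was at 23.8 FPKM at E13.5, 10.4 FPKM at E15.5 and 1.17 FPKM at P7 in wild-type mice. The same gene was at 19.99, 10.7 and 1.26 FPKM in linc-Brn1b-/- mice. Sox9, in brain a factor of neural progenitors and astrocytes, was at 28.2, 13.9 and 6.37 FPKM in wild-type and at 28.5, 13 and 4.18 FPKM in linc-Brn1b-/- mice. Both genes were lower at each later age in both genotypes. Abca3 was at 13.497, 16.7 and 28.2 FPKM in wild-type and 15.7, 16.6 and 33.1 FPKM in linc-Brn1b-/- mice. Etv5 was higher at each later age in both genotypes but past the fold in no step, at 10.2, 12.0 and 13.999 FPKM in wild-type and 12.2, 12.8 and 16.7 FPKM in linc-Brn1b-/- mice.

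From E13.5 to E15.5, Nkx2-1 and Sox9 were past the fold and lower in both genotypes, 2 of the 4 genes above the minimum, and 0 were higher. Over all genes, 17.0% were past the fold in wild-type telencephalon (8.72% higher and 8.27% lower) and 18.3% in linc-Brn1b-/- telencephalon (10.4% higher and 7.84% lower). In wild-type telencephalon the differences were -1.13 for Nkx2-1 and -0.97 for Sox9. From E15.5 telencephalon to P7 brain, Nkx2-1 and Sox9 were past the fold and lower and Abca3 past it and higher in both genotypes, 3 of 4, beside 51.5% of all genes in wild-type mice (24.7% higher and 26.8% lower) and 52.5% in linc-Brn1b-/- mice (25.6% higher and 26.9% lower). The wild-type differences were -2.39 for Nkx2-1, a size that 2.61% of genes reached, -1.02 for Sox9 (25.9%) and 0.72 for Abca3 (42.0%). The tissue dissected changed between these ages, so age and region cannot be told apart. The Y-linked genes also differed between ages of 1 genotype (Ddx3y was at 13.6, 0.00108 and 0.0116 FPKM in the wild-type groups).

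**Figure D4:**
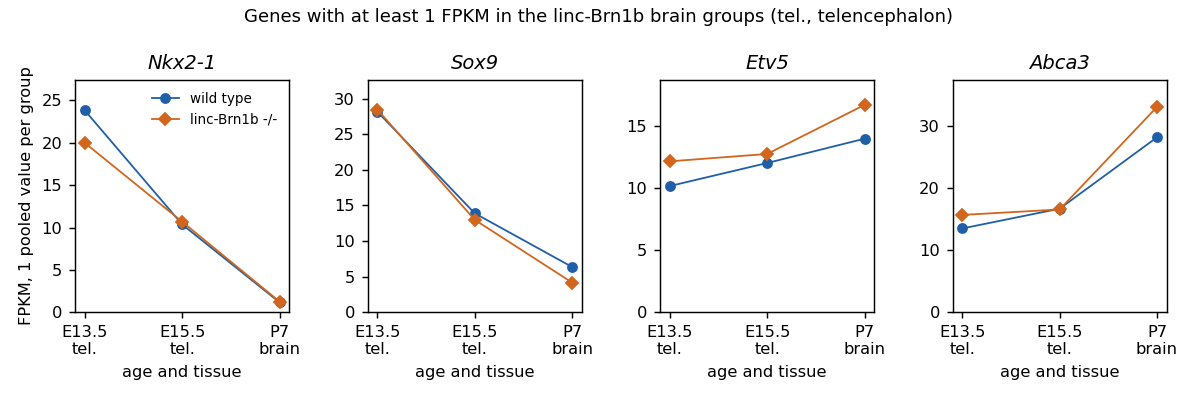
FPKM of Nkx2-1, Sox9, Etv5 and Abca3 in the linc-Brn1b strain by age and tissue, with 1 pooled value per group (circles for wild type, diamonds for linc-Brn1b-/-, lines joining groups of different animals). Each vertical axis starts at 0 and has its own range: Nkx2-1 runs from 23.8 to 1.17 FPKM and Sox9 from 28.2 to 6.37 FPKM in wild-type mice.

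Between genotypes of the brain strains, none of the 4 genes was past the fold in any of the 4 comparisons. Over all genes, 1.98% were past the fold in E18.5 brain of the Peril strain (1.12% higher and 0.855% lower in the knockout). In the linc-Brn1b strain the share was 7.23% at E13.5 (1.64% higher and 5.59% lower), 0.564% at E15.5 (0.242% higher and 0.322% lower) and 4.58% at P7 (2.16% higher and 2.42% lower). In E18.5 brain, Nkx2-1 was at 3.93 FPKM in wild-type and 3.22 FPKM in Peril-/- mice, Sox9 at 8.51 and 9.18 FPKM, Etv5 at 14.4 and 14.05 FPKM and Abca3 at 22.3 and 24.4 FPKM. The difference nearest to the fold was that of Sox9 in P7 brain, at -0.51 with the linc-Brn1b-/- value at 65.6% of wild type, which passed the fold when the pseudocount was 0.1 FPKM or left out. Of 10 radial glia and astrocyte genes, 4 were past the fold and lower there, with a median of -0.49 (Aldh1l1, a marker of astrocytes, was at 39.3 and 19.4 FPKM), and their part in the Sox9 value was not tested. In E13.5 telencephalon Nkx2-1 differed by -0.24, while the 7 genes of the medial ganglionic eminence list had a median of -0.03. In each of the 4 brain comparisons the Y-chromosome genes were at or near 0 in one genotype only (Ddx3y was at 0 FPKM in wild-type and 6.86 FPKM in Peril-/- brain), so that here too sex and genotype cannot be told apart.

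Over the 10 groups, each gene was set beside the genes with the most similar values, by Euclidean distance of log2(FPKM + 1) over 19774 candidate genes. The groups span separately normalized tables, and a small distance says that levels are alike. Sftpa1 lay nearest to Lamp3, a lysosomal membrane gene of type 2 cells, at a distance of 0.147 (3.57 and 2.79 FPKM in wild-type and Fendrr-/- lung), then to Habp2 and Prss22. Sftpb lay nearest to the epithelial genes Cldn7 (0.222) and Esrp1 (0.358), then to Gata5. Scgb3a2 lay nearest to Tcf21 (0.586), a factor of lung mesenchyme, then to Cldn6 and Sfta2. Foxa2 lay nearest to Cytl1 (0.536), St14 and Bspry. Sftpc had no close neighbour: the nearest was Adh1 at 1.72, followed by the heart muscle genes Myl7 and Actc1 at 2.71 and 3.97.

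The genes with brain expression lay nearest to genes of other kinds. Nkx2-1 was nearest to Cenp-a (0.862), Kif20a and Atad2, of which the first 2 act in chromosome segregation and cytokinesis. Sox9 was nearest to Cep78 (0.798), Qser1 and Pard3, Etv5 to Ralb (0.924), Wls and Lamc1, and Abca3 to Mvd (0.521), Iqsec1 and Zer1. With Pearson's correlation as the measure of likeness, 1 of the 3 nearest genes was shared for Sftpa1 and 0 for each of the other 8 genes (Sftpd, below the minimum, was left out), so these names depend on the measure.

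Shared loci limit some values. Sox9's row spans a locus that also holds linc-Sox9-BP and linc-Sox9-AS, listed at no more than 1.14 FPKM, and in the linc-Brn1b table Abca3 shares a locus with linc-Abca3-AS, at no more than 1.61 FPKM. Reads of overlapping antisense transcripts cannot be told apart without strand, and whether strand was used is not given in the sources used here.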

How the data were processed

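Total RNA was isolated from 21 mouse samples, and TruSeq mRNA libraries made from it were sequenced in paired ends. Alignment to mm9 used TopHat2, assembly Cufflinks 2.0.2 and quantification Cuffdiff2 at default options, all run by the authors. The deposited values are FPKM, 1 pooled value per group in 3 separately normalized tables with 0 columns of values of single samples, so depth and replicate spread are unknown. The tables also hold fold changes, test statistics, p and q values of the authors' own comparisons, which were not used.

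From the FPKM, differences of log2(FPKM + 1) were computed with Python 3.11.15, numpy 2.4.6 and pandas 2.3.3, with a minimum of 1 FPKM in one of the groups and a fold of 1.5 in FPKM + 1 for a call. The calculation was tested on simulated data. Gene positions are those of GENCODE for mm9 (NCBIM37), and promoters those of RefSeq.

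The 10 genes and the 19 lists beside them (165 genes) were chosen with earlier results of these data known. Named were the 10 genes, from each list the highest and lowest gene and any past the fold, the 3 most similar genes, Fendrr, Foxf1a and sex-linked genes. Examples from other lists (Tbx4, Tubb3, Tg, Foxa1, Aldh1l1, Slc34a2, Hbb-bh1, Cyp2f2, genes listed at 0) were chosen after their values were seen. One airway gene is counted in its list but is not reported here. Alternatives were pseudocounts of 0.1 and none, no minimum and a minimum of 5 FPKM, centring on the median, scaling by the upper quartile or by the epithelial median, folds of 2 and 1.25, and Pearson's correlation.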

Additional observations from a re-analysis of the deposited data

How the results depend on the processing

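With 1 pooled value per group and no replicate spread, a log2 value was counted as moved when it shifted by 0.1 or more. Of 62 alternative values of the single genes in lung, 52 moved by less, 10 by more, and 0 took another sign. Most of these outcomes were fixed by the setting. A changed minimum leaves the value of a gene as it is, and centring and upper-quartile scaling were shifts of 0.0033 and 0.0077. The epithelial median of -0.146 shifts every gene by more than 0.1. The tally is therefore no measure of how stable the values are. Scaling lung by the epithelial median moved the median of the 9 genes to -0.061, of the general epithelial list to 0, of the tip list to 0.17, of the alveolar type 2 list to -0.13, of the type 1 list to -0.00025, of the airway list to 0.0064, of the other epithelial factors to 0.014 and of the FGF list to 0.21. A minimum of 5 FPKM moved the airway median to 0.24, with only Cyp2f2 and Krt5 left in that list. The lower alternative fold gave 2 lung genes with lower values, Sftpb and Scgb3a2. Differences of their size were reached in either direction by 4.68% and 7.85% of all lung genes above the minimum. The share of all genes past that lower fold was not computed. In P7 brain of the linc-Brn1b strain, 1 gene (Sox9) was lower past the fold with a pseudocount of 0.1 FPKM, with none, and with the lower alternative fold. In the main setting 6.66% of all genes above the minimum there had a difference of its size or more. The shares of all genes under the alternative settings were not computed. No paired analysis was possible because the tables hold no values per sample, and leaving out each replicate was not run for the same reason. Low values limit Sftpd, whose levels could not be compared.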
